A study of Mus musculus with 12 samples.

Results

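The genes described here are products and transcription factors of goblet and Paneth cells, the mucus-making and the antimicrobial secretory cells of the small intestine. They were listed by name as Muc2, Fcgbp, Clca1, Zg16, Tff3, Agr2, Spink4, Lyz1, Spdef and Atoh1, and 9 of the 10 genes were among the 6429 genes in both of the authors' deposited tables of Pol II signal. Lyz1, the lysozyme of Paneth cells, has windows in the deposited window files but is not in those tables, so its signal was not analysed here. Binding of RNA polymerase II (Pol II) was measured by ChIP-seq, in which chromatin fragments bound by Pol II are pulled down with an antibody and sequenced, in epithelium of the mouse duodenum. The labels list 3 Pol II libraries for each of 3 groups, which are wild-type (WT) villus, WT crypt, and villus of mice whose genotype is given as Hnf4 alpha gamma DKO, lacking the transcription factors HNF4A and HNF4G. The DKO mice received tamoxifen at 50 mg/kg/day on 2 days and were killed 1 day later, and the WT mice received the oil and ethanol vehicle without tamoxifen. EDTA, which loosens the epithelium, acted for 25 minutes on mutant and 35 minutes on WT tissue. The effects of genotype, of tamoxifen and of EDTA time cannot be told apart between the WT and DKO groups. Crypts were taken from WT mice alone, as the part that passed a 70 µm filter. The Cre driver, the ages of the mice and whether each library came from its own mouse are not given in the sources used here.

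Goblet and Paneth cells arise from crypt progenitors in which Notch signalling is low and the transcription factor ATOH1 is active. Goblet cells move up the villus with the absorptive enterocytes, while Paneth cells stay at the crypt base. The goblet cell folds and packs MUC2, a gel-forming mucin, in its endoplasmic reticulum and Golgi, and releases it with FCGBP, CLCA1, ZG16 and TFF3, which are held in the mucus. AGR2 is a protein disulfide isomerase of the endoplasmic reticulum needed for mucin folding, and SPDEF is an ETS-family factor that drives goblet and Paneth cell maturation.

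In the RefSeq promoter table of build GRCm38.p6, 6 of the 10 genes had an entry (Muc2, Fcgbp, Agr2, Lyz1, Spdef and Atoh1), and Clca1, Zg16, Tff3 and Spink4 did not. Of the 6, the 3 that were called in a comparison below are shown, Muc2 and Fcgbp, which differed between villus and crypt, and Agr2, which differed in both comparisons. Each is the 250 bases before the annotated start, on the strand of the gene, and capitals mark the TATA box core TATAA and the E-box CAGCTG, a site of the kind bound by basic helix-loop-helix factors such as ATOH1. Muc2 lies on the + strand at chr7:141690090-141690339, Fcgbp on the + strand at chr7:28070986-28071235 and Agr2 on the + strand at chr12:35992675-35992924.
Muc2: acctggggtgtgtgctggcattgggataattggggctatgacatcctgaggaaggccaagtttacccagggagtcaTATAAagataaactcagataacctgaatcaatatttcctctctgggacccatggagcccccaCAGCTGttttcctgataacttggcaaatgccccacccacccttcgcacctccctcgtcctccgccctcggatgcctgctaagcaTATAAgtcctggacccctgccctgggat
Fcgbp: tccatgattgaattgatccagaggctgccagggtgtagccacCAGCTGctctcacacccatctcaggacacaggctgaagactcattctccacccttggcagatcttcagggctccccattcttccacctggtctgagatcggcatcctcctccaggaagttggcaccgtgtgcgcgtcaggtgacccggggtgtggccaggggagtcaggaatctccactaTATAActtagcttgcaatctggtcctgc
Agr2: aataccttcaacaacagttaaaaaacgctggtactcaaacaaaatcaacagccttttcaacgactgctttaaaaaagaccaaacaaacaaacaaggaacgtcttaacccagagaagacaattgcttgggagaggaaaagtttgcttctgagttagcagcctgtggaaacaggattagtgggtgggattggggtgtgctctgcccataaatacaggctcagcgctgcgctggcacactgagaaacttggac
Searched on both strands, TATAA began 28 bases before the start in both Muc2 and Fcgbp and a second time 174 bases before the start in Muc2. The same core was found in 22.8% of the 32851 promoters of the table over the same length. CAGCTG, found in 13% of them, began 112 bases before the start in Muc2 and 208 bases before it in Fcgbp. Neither motif was found in the Agr2 stretch, where 44.4% of the bases were G or C against 53.2% in Muc2, 56.4% in Fcgbp and a median of 52.4% over the table. CAAAGTCC, a core of the HNF4 motif, was found in none of these 3 stretches and in 1.2% of all promoters. These matches describe the letters in these windows and show no binding.

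The deposited window files place 11 transcripts of the 10 genes in the mouse build mm9, each with a promoter window of 402 bp and a gene body window. No window of these genes overlapped a window of another named gene. On the + strand, Muc2 starts at position 148876239 and Fcgbp at 28856255 of chromosome 7, Agr2 at 36719512 of chromosome 12, Spink4 at 40867089 of chromosome 4 and Atoh1 at 64679119 of chromosome 6. On the other strand, Clca1 starts at 144695740 of chromosome 3, Zg16 at 134196189 of chromosome 7, Tff3 at 31266556 of chromosome 17 and Lyz1 at 116729924 of chromosome 10, and the Spdef transcripts start at 27867948 and 27865896 of chromosome 17. The gene body windows ran from 1271 bp at Atoh1 to 63511 bp at Muc2. Their position depended on strand. For the genes on the + strand the gene body window began 350 bp after the start, while for Clca1, Zg16, Tff3, Lyz1 and Spdef it began 350 bp before the start and held the whole promoter window. The same was true of all 21190 transcripts on the - strand and of 0 of 19858 on the + strand. The promoter window equals 11.9% of the gene body window in length at Zg16, 7.8% at Tff3 and 1.38% at Clca1.

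**Figure D1:**
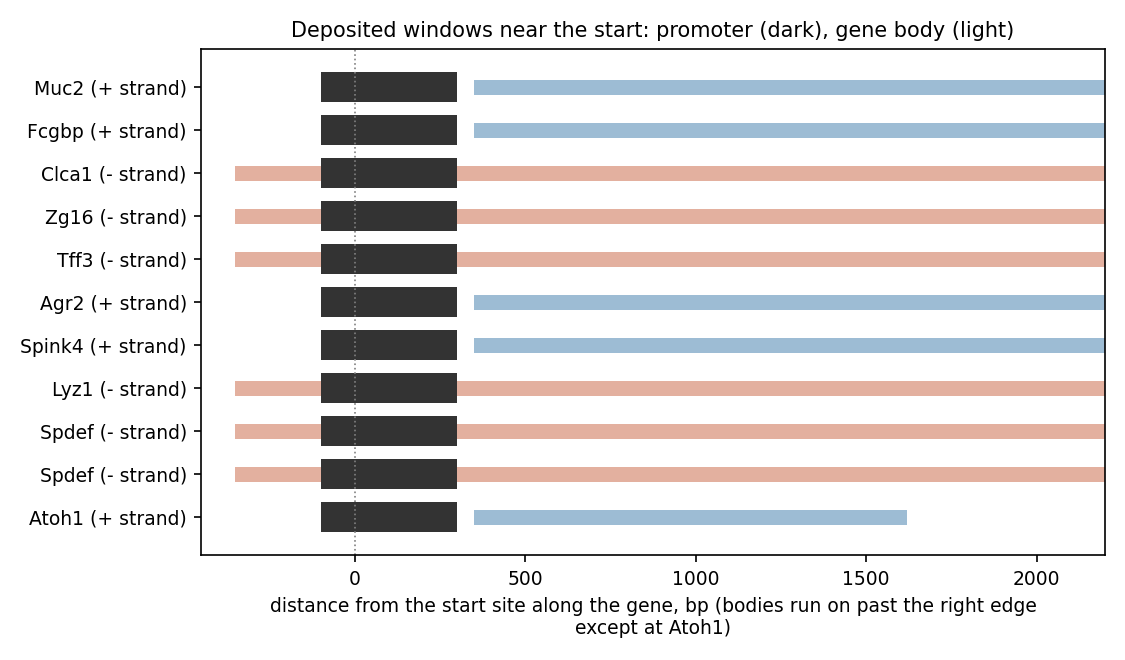
Deposited windows near the start of each secretory transcript, drawn by distance from the start site in bp along the gene; dark bars are the promoter windows, and light bars the gene body windows, blue for the + and red for the - strand. The gene body windows begin 350 bp after the start on the + strand and 350 bp before it on the - strand.

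The authors' deposited tables give no value per library, so the values are a mean Pol II signal (counts divided by DESeq2 size factors, averaged over libraries), log2 fold changes with their standard error (SE, printed after ±) and adjusted p-values. A gene was called when the adjusted p was under 0.05. The window behind the signal is not stated in the tables, and across 6390 genes with a window genes with longer gene bodies had more signal (Spearman's rho 0.79, a description over genes of the same libraries), so levels are not compared between genes. Directions rest on the names of the tables. In a check from the standard errors, both signs as named explained 68.7% of the sum of squares, a reversed first sign 40.4%, and either case with the second sign reversed 0%. Signal at the targeted genes did not fall in the libraries labelled DKO. In the authors' deposited table the log2 change, as WT over labelled-DKO villus, was -0.54 ± 0.14 at Hnf4a and -1.45 ± 0.22 at Hnf4g, with DESeq2 adjusted p-values of 0.000484 and 7.81e-10, and a signal over an unstated window does not check a deletion. The group is therefore called labelled DKO throughout.

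The first comparison surveys Pol II along the crypt-villus axis. Muc2, Fcgbp, Clca1, Zg16 and Tff3 had more Pol II in villus, and Agr2 and Spink4 had more in crypt. By the authors' deposited table, 5 of the 9 genes were called higher in WT villus and 2 higher in crypt, against 18.6% and 18.8% of all genes, with 37.4% called in either direction. The median log2 fold change of the 9 genes was 0.34, and that of all genes -0.04. Spdef and Atoh1 were not called.

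Zg16, which encodes a lectin of the mucus that binds bacteria, had a rebuilt mean signal of 174 in WT villus and 85.5 in crypt, and its log2 fold change in the authors' deposited table was 1.03 ± 0.17 (adjusted p 1.31e-08). These group means were rebuilt from the deposited mean and fold changes on the assumption of equal groups and unshrunken fold changes, since no value per library could be used. Muc2 had 661 in villus and 347 in crypt, a log2 fold change of 0.93 ± 0.17 (adjusted p 7.6e-07) in the authors' deposited table. Fcgbp, whose product is a large mucus protein cross-linked to MUC2, had 1692 and 893, a change of 0.92 ± 0.13 (adjusted p 6.05e-11) in that table. The intervals of these 3 genes overlapped, reaching from 0.59 to 1.35, and each is a difference of about 1.9-fold or, for Zg16, 2.04-fold. Clca1 and Tff3 were called in the same direction, and their differences from the first 3 genes were not tested. Tff3, the goblet trefoil peptide that aids repair of the surface, had a change of 0.51 ± 0.19 and Clca1, a secreted metalloprotease that acts on mucus, of 0.34 ± 0.13 in the authors' deposited table, both with an adjusted p of 0.02.

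Agr2 and Spink4 went the other way. Agr2 had a rebuilt mean of 97.1 in WT villus and 153 in crypt, with a log2 fold change of -0.66 ± 0.13 (adjusted p 7.2e-06) in the authors' deposited table. Spink4, a Kazal-type peptide of goblet cells, had 80.5 and 133, with -0.72 ± 0.10 (adjusted p 3.97e-11) in the same authors' deposited table. The 95% intervals of both genes, from -0.92 to -0.40 and from -0.92 to -0.52, lie below 0 and apart from the intervals of the 5 genes higher in villus. At Spdef the change in the authors' deposited table was -0.12 ± 0.14 with a 95% interval of -0.40 to 0.15, and at Atoh1 it was 0.21 ± 0.24 with an interval of -0.25 to 0.67. Atoh1 had a mean signal of 45.7, and its SE was the largest of the 9. A change at Atoh1 as large as that at Tff3 lies within this interval. With a stricter adjusted p of 0.01, Clca1 and Tff3 were not called between villus and crypt.

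**Figure D2:**
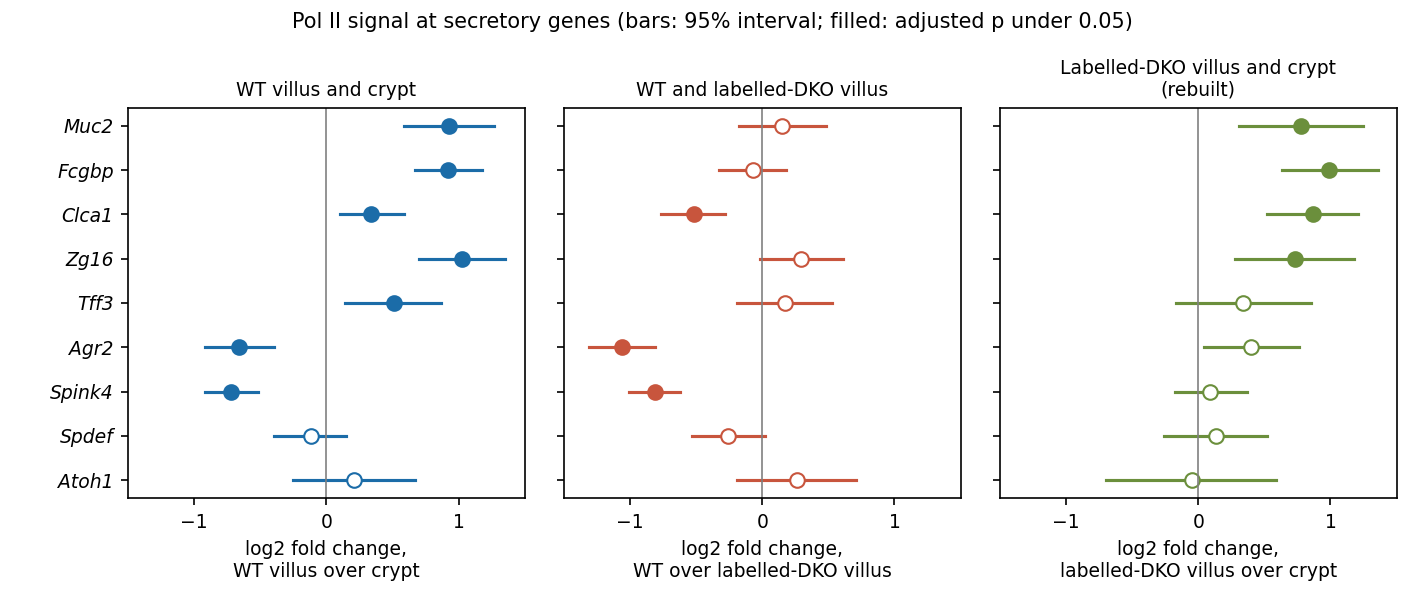
Log2 fold change of Pol II signal at the 9 secretory genes with 95% intervals (bars), for WT villus over crypt, WT over labelled-DKO villus (both from the authors' deposited tables) and labelled-DKO villus over crypt (rebuilt); filled points have an adjusted p under 0.05. In the first panel the intervals of 5 genes lie wholly right of 0 and those of 2 wholly left of it, and in the middle panel the intervals of Agr2, Spink4 and Clca1 lie wholly left of 0.

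The study set up the second comparison to look for HNF4-dependent Pol II recruitment, and it is read here as a difference between the groups as labelled, with genotype, tamoxifen and EDTA time combined. Agr2, Spink4 and Clca1 had more Pol II in villi labelled DKO than in WT, and no difference was called at the other 6 genes. By the authors' deposited table, 3 of the 9 genes were called higher in labelled-DKO villus, against 29.5% of all genes, and 0 were called higher in WT villus, against 22.4%. No member reached an unadjusted DESeq2 p under 0.05 toward WT either, a count of 0, and 51.9% of all genes were called in either direction. The balance over all genes, 1443 toward WT and 1895 toward labelled DKO, turned to 1710 and 1422 after centring on the median, and to 420 and 139 with a log2 fold change beyond 1. The share called toward labelled DKO is near that background, and the members' median log2 fold change of -0.07 is near the -0.08 of all genes.

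Agr2 had the largest change of the 9 genes, with a rebuilt mean of 202 in labelled-DKO villus against 97.1 in WT villus. Its log2 fold change, WT over labelled DKO, was -1.06 ± 0.13 (adjusted p 3.4e-15) in the authors' deposited table, a 2.08-fold difference. Spink4 had 142 against 80.5, and -0.81 ± 0.10 (adjusted p 2.61e-15) in the authors' deposited table, a 1.76-fold difference. Clca1 had 519 against 361, and -0.52 ± 0.12 (adjusted p 0.000102) in the authors' deposited table. Clca1 differs from Agr2 and Spink4 in that its WT villus level also lay above that of crypt.

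At the other secreted-product genes the intervals bound the combined difference between the groups. Muc2 had 661 in WT and 595 in labelled-DKO villus, and a change of 0.15 ± 0.17 with a 95% interval of -0.18 to 0.48 (adjusted p 0.47) in the authors' deposited table. Fcgbp had 1692 and 1778, and -0.07 ± 0.13 with an interval of -0.33 to 0.18 (adjusted p 0.672) in the authors' deposited table. Both upper bounds lie below the lower bounds of the same genes between villus and crypt, 0.59 and 0.67. Tff3, at 0.17 ± 0.18 with an interval of -0.19 to 0.53, was not called in the authors' deposited table. Zg16 was at 0.29 ± 0.16 with an interval of -0.02 to 0.61 (adjusted p 0.109) in the authors' deposited table, and centring all genes on their median made it 0.37 with an adjusted p of 0.0392. The same centring moved Fcgbp to 0.0096 (adjusted p 0.959). The factor genes Spdef, at -0.26 ± 0.14 (adjusted p 0.113), and Atoh1, at 0.26 ± 0.23 (adjusted p 0.343), were not called in the authors' deposited table.

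**Figure D3:**
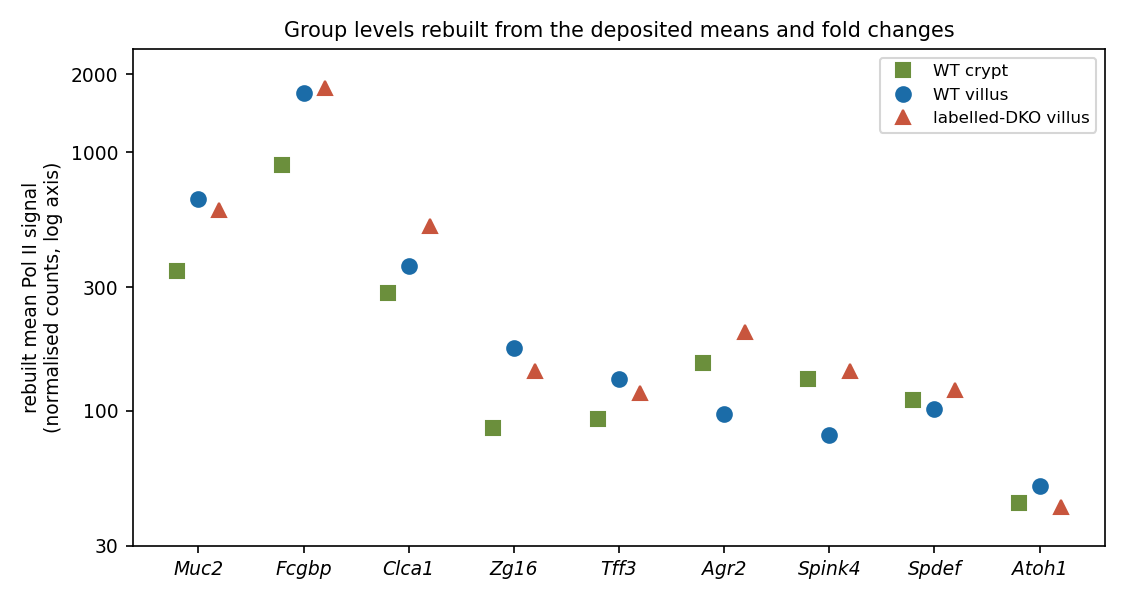
Rebuilt mean Pol II signal (normalised counts, log axis) of the 9 secretory genes in WT crypt, WT villus and labelled-DKO villus; the points carry no error because they are rebuilt from deposited means. At Agr2, Spink4 and, by a margin that was not called, Spdef WT villus is the lowest of the 3 groups. At Muc2, Fcgbp, Clca1, Zg16 and Tff3 crypt is the lowest, though at Tff3 its margin below labelled-DKO villus was not called.

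The 2 comparisons share the WT villus libraries, so a high or low WT villus value moves both, and the values are set side by side without a correlation. Of the 1193 genes called higher in villus than crypt, 75.4% were also called toward WT between the genotypes in the authors' deposited tables. None of the 5 villus-high secretory genes was among them. Muc2, Fcgbp, Zg16 and Tff3 fell among the 253 villus-high genes (21.2%) with no genotype call, and Clca1 among the 40 (3.35%) that were higher in labelled-DKO villus. Agr2 and Spink4 fell with 890 of the 1210 crypt-high genes (73.6%) that were also called higher in labelled-DKO villus. Spdef and Atoh1 were among the 2531 genes called in neither table.

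**Figure D4:**
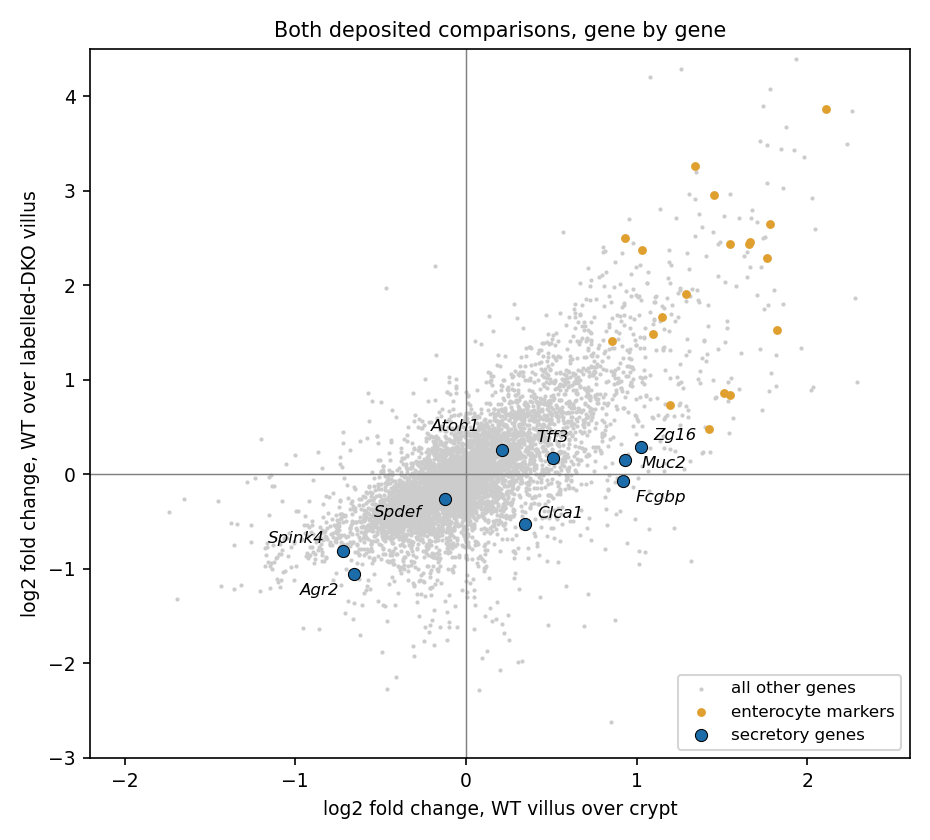
Log2 fold changes of the authors' deposited tables for all genes, WT villus over crypt on the x axis and WT over labelled-DKO villus on the y axis, with the 9 secretory genes in blue and the enterocyte markers in orange; 4 genes lie outside the axes. The enterocyte markers lie in the upper right quadrant. Muc2, Fcgbp and Zg16 lie right of 0, at 0.92 to 1.03 on the x axis and -0.07 to 0.29 on the y axis.

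Labelled-DKO villus was then compared with crypt by subtracting the second deposited log2 fold change from the first, with the largest SE that independent errors allow. By this rebuilt test 4 of the 9 genes were called higher in labelled-DKO villus, against 6.41% of all genes, and 0 were called higher in crypt, against 7.19%. Lyz1, the Paneth product among the members, was not in this test, and the tested Paneth products are given below. The unadjusted p was under 0.05 for 5 genes toward labelled-DKO villus and 0 toward crypt. The share of all genes under that unadjusted limit was not counted, and after adjustment 13.6% of all genes were called either way. Fcgbp had a log2 fold change of 0.99 ± 0.19, Clca1 of 0.87 ± 0.18, Muc2 of 0.78 ± 0.24 and Zg16 of 0.73 ± 0.23, with adjusted p-values from the normal test of 3.79e-06, 2.91e-05, 0.0138 and 0.0155. Agr2, at 0.40 ± 0.18, was not called with an adjusted p of 0.143, and was called with the smaller SE of the first table (adjusted p 0.0116). Spink4 was at 0.09 ± 0.14, with an interval of -0.18 to 0.37. Tff3, at 0.34 ± 0.26, was not called either, with an adjusted p from the normal test of 0.471.

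Markers of other cells moved in the same comparisons. Of all genes, 18.6% were called higher in villus, 18.8% higher in crypt, 22.4% toward WT and 29.5% toward labelled DKO. In the authors' deposited tables all 19 tested of 20 enterocyte markers were called higher in villus than crypt (median 1.45, range 0.86 to 2.11) and toward WT between the genotypes (median 2.29, range 0.49 to 3.87). Of 14 crypt stem cell markers 4 were tested, of which 3 were called higher in crypt and 2 higher in labelled-DKO villus. Pcna and Ccnd1, the tested 2 of 10 proliferation markers, were called higher in crypt and higher in labelled-DKO villus in the authors' deposited tables. Of 10 immune markers 4 were tested, and Cd74 was called, higher in villus and in WT. None of the 8 mesenchyme markers was in the tables. In these bulk samples fewer cells of a type and less Pol II per cell cannot be told apart, and the part of cell composition in the secretory gene values was not tested.

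The wider lists of the lineage were chosen with earlier results known. The goblet and mucus list holds all tested members except Spdef and Atoh1, so its counts and medians largely repeat theirs. Of 24 goblet and mucus genes 11 were tested, and the authors' deposited table called 6 higher in villus and 3 higher in crypt, against 18.6% and 18.8% of all genes, with a median of 0.51. Beyond the genes above, these were Muc3, a membrane mucin, at 1.56 ± 0.47 toward villus, and Ccl6, a chemokine, at -0.48 ± 0.20 toward crypt. Between the genotypes 1 was called toward WT and 4 toward labelled DKO, against 22.4% and 29.5% of all genes, with a median of -0.07; the latter share is near the background. The 1 gene was Muc13, a membrane mucin also made by enterocytes, at 1.81 ± 0.29 in the authors' deposited table. Smim14 was the fourth gene higher in labelled-DKO villus, at -0.38 ± 0.10.

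Paneth products were thinly covered, with 5 of 17 genes tested and none of the 4 listed defensin genes among them. In the authors' deposited table Pla2g2a, a secreted phospholipase that kills bacteria, was higher in crypt at -1.12 ± 0.19, and Dmbt1, a secreted scavenger-receptor glycoprotein, at -1.91 ± 0.32. Between the genotypes Pla2g2a was not called, at -0.12 ± 0.20, while Dmbt1 was higher in labelled-DKO villus at -3.84 ± 0.32 in the authors' deposited table. The antimicrobial lectin gene Reg3b was higher in WT villus at 1.52 ± 0.17, and its relative Reg3g at 0.60 ± 0.20, in the authors' deposited table. Along the axis Reg3b and Reg3g were not called, at 0.16 ± 0.15 and -0.17 ± 0.19, so neither was called higher in crypt. The list thus held 2 genes called toward WT, Reg3b and Reg3g, and 1 toward labelled DKO, against 22.4% and 29.5% of all genes. Its 2 genes called higher in crypt and 0 higher in villus stand against 18.8% and 18.6%.

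Of 18 secretory transcription factors 9 were tested. Along the axis 2 were called higher in villus and 3 higher in crypt, against 18.6% and 18.8% of all genes. Between the genotypes 2 were called toward WT and 3 toward labelled DKO, against 22.4% and 29.5% of all genes. The genotype shares are near the background. The authors' deposited table called Klf4, a zinc-finger factor of goblet cell differentiation, higher in villus at 1.79 ± 0.23, and Bhlha15, which scales up the secretory apparatus, at 0.46 ± 0.18. Sox9, needed for Paneth cells, was higher in crypt at -0.68 ± 0.18, as were Creb3l4 at -0.48 ± 0.13 and Foxa1 at -0.36 ± 0.13. Between the genotypes Klf4 (1.07 ± 0.23) and Bhlha15 (0.38 ± 0.17) were called higher in WT villus in the authors' deposited table. Foxa1 (-0.88 ± 0.13), Gfi1, a factor downstream of ATOH1 (-0.45 ± 0.18), and Creb3l4 (-0.32 ± 0.12) were called higher in labelled-DKO villus in that table. Xbp1, which expands the endoplasmic reticulum of secretory cells, was called in neither, at 0.24 ± 0.17 in each table.

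Notch genes set the balance between the lineages upstream of ATOH1. Of 18 genes 9 were tested, and 1 was called in each direction between villus and crypt, where 37.4% of all genes were called either way. Between the genotypes 2 were called toward WT and 2 toward labelled DKO, against 22.4% and 29.5% of all genes. The Notch ligand gene Dll1, carried by secretory progenitors, was higher in villus at 0.49 ± 0.12 and in WT over labelled-DKO villus at 1.11 ± 0.12 (adjusted p 3.98e-19) in the authors' deposited tables. Hes1, the Notch target that represses Atoh1, was not called in either table, at -0.16 ± 0.14 and -0.04 ± 0.14. Numb, a Notch inhibitor, was called higher in WT villus at 0.34 ± 0.07 in the authors' deposited table, and Maml1, a co-activator, and Ncstn, a gamma-secretase subunit, were called higher in labelled-DKO villus at -0.43 ± 0.10 and -0.30 ± 0.08.

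Genes of folding in the endoplasmic reticulum, to which Agr2 belongs, were covered by 18 of 28. The authors' deposited table called 4 higher in villus and 4 higher in crypt, against 18.6% and 18.8% of all genes. Both shares are near the background. Between the genotypes it called 2 higher in WT villus and 6 higher in labelled-DKO villus, against 22.4% and 29.5% of all genes, with a median of -0.25 against -0.08 for all genes. The share called toward labelled DKO is thus near the background. The 6 genes were Agr2, Hspa5 (the chaperone BiP, -0.76 ± 0.26), Pdia3 (-0.67 ± 0.18), Canx (calnexin, -0.61 ± 0.17), Hsp90b1 (-0.43 ± 0.15) and Dnajb11 (-0.32 ± 0.10) in the authors' deposited table. P4hb, another protein disulfide isomerase gene, went the other way at 1.00 ± 0.16, as did Atf4 at 0.50 ± 0.20. By the rebuilt test of labelled-DKO villus against crypt 0 of the 18 genes were called, where 13.6% of all genes were called either way. In that test 3 genes, Agr2 among them, had an unadjusted p under 0.05, all toward labelled-DKO villus. The share of all genes under that unadjusted limit was not counted.

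**Figure D5:**
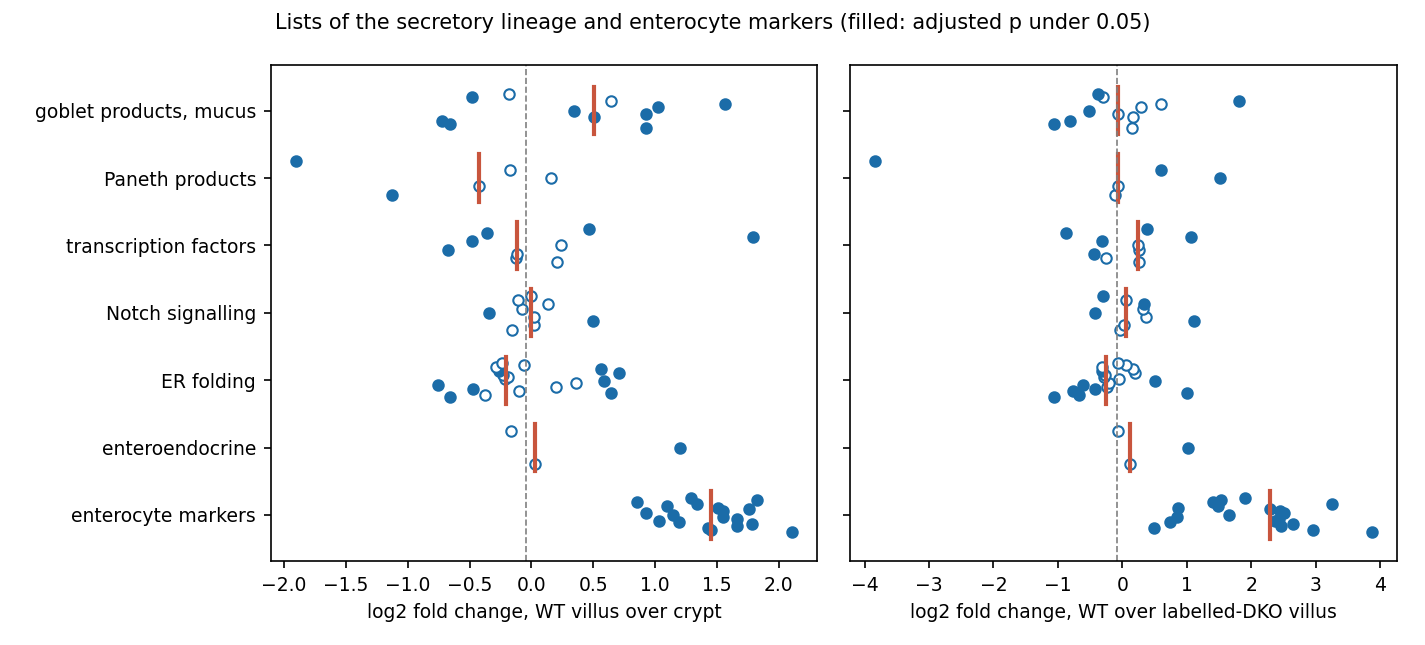
Log2 fold changes of the authors' deposited tables for each tested gene (points; filled where the adjusted p is under 0.05) of the lineage lists and the enterocyte markers, with list medians as red bars and the median of all genes as a dashed line. All enterocyte points lie right of 0 in both panels, and the secretory lists hold points on both sides.

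Of the other lineages, 3 of 10 enteroendocrine genes were tested. Sct, which encodes the hormone secretin, was called higher in villus at 1.20 ± 0.22 and in WT at 1.02 ± 0.21 in the authors' deposited tables, while Chga and Ghrl were called in neither. Avil was the 1 tested gene of 8 tuft cell markers and was called in neither, at -0.04 ± 0.12 and -0.08 ± 0.12 in the authors' deposited tables.

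The nearest tested genes along the chromosome, looked up after the values above were known, differed in how they moved. Only some are described here, beside Clca1, Muc2, Agr2 and Spink4. Among the others, Rps10 (-0.76 ± 0.21 and -0.60 ± 0.21) and Ilrun (-0.20 ± 0.06 and -0.26 ± 0.06) beside Spdef were called toward crypt and labelled DKO. Psmc4 and Dyrk1b beside Fcgbp were called in neither of the authors' deposited tables. Clca4a, a relative of Clca1 whose windows lie 28.6 kb from those of Clca1, had a log2 fold change of 1.60 ± 0.11 for villus over crypt and 2.71 ± 0.11 for WT over labelled-DKO villus in the authors' deposited tables, where Clca1 had 0.34 and -0.52. Clca1 is matched here by its current symbol, and the name also served in the past for Clca3a1. Muc6, a gel-forming mucin gene 34.5 kb from Muc2, was not called along the axis (0.25 ± 0.12) and was called higher in WT villus (0.33 ± 0.12, adjusted p 0.0111) in the authors' deposited tables. Tspan13, 10.5 kb from Agr2, was called in neither of the authors' deposited tables, at 0.01 ± 0.12 and 0.03 ± 0.12. On the other side of Agr2, 499 kb away, Ahr was not called along the axis (-0.16 ± 0.11) and was called toward labelled DKO at -0.91 ± 0.10 in the authors' deposited tables. Bag1, 5 kb from Spink4, was called in the same directions as Spink4, at -0.28 ± 0.10 and -0.59 ± 0.10 in the authors' deposited tables. On its other side, 65.1 kb away, B4galt1 was not called along the axis (0.28 ± 0.31) and was called toward labelled DKO at -0.81 ± 0.31 (adjusted p 0.0181) in the authors' deposited tables.

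Genes with a pattern most like that of Agr2 and Spink4 were sought by the distance over both log2 fold changes, among genes with a mean signal within 2-fold. For Agr2, among 3953 genes, these were Anp32b (distance 0.06), Slc35b2 (0.11) and Tspan1 (0.12). In the authors' deposited tables Anp32b had -0.62 ± 0.11 and -1.11 ± 0.11, and Slc35b2 had -0.76 ± 0.17 and -1.04 ± 0.17. Tspan1 had -0.64 ± 0.15 and -0.94 ± 0.14. For Spink4, among 3979 genes, these were Rps27a (0.05), Rabggtb (0.07) and Pik3ip1 (0.07). Rps27a had -0.70 ± 0.17 and -0.86 ± 0.17, Rabggtb -0.68 ± 0.18 and -0.76 ± 0.18, and Pik3ip1 -0.65 ± 0.10 and -0.82 ± 0.09. Each of these distances is smaller than the SE of the member's own changes.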

How the data were processed

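Per the labels, Pol II ChIP-seq and input libraries were made from mouse duodenal epithelium. Per the submitters' processing notes, Bowtie2 2.2.6, SAMtools 0.1.19, featureCounts and DESeq2 1.36.0 were used with build mm9. Per the file headers, the deposited window files came from featureCounts 2.0.3, with read pairs of mapping quality at least 30, duplicates ignored and no strand option. Their 18 columns of counts per library carry no names, could be matched to no sample and were not used; depth per library was not analysed here. The authors deposited, for each gene, a mean signal (normalised counts), a log2 fold change with its SE, the Wald score, and p-values before and after adjustment. The deposited Wald scores equalled the fold change over its SE to within 1.8e-07, and the adjusted p-values a Benjamini-Hochberg adjustment over all genes to within 3.8e-07. The planned edgeR tests of window counts were not run. Group means and the DKO-crypt test were rebuilt with Python 3.11.15, numpy 2.4.6, pandas 2.3.3 and scipy 1.17.1, tested on simulated data. Symbols were matched to RefSeq transcripts for 96.8% of promoter and 97.7% of gene body windows. Intervals are at 95%. All members were named, and other genes of the lineage and of other cells by fixed lists. For Agr2 and Spink4 the 3 genes nearest by distance over both log2 fold changes were also named. Some chromosomal neighbours, on no list, were named after the values were known. The members and lists were chosen with earlier results of these data known. If replicates are technical, p-values measure only that spread.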

Additional observations from a re-analysis of the deposited data

How the results depend on the processing

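Over 141 pairings of a member, a comparison and an alternative setting, 112 calls stayed as they were, 26 no longer passed and 2 newly passed. An uncalled value cannot newly pass under a stricter adjusted p or a limit on the change. Part of the 112 was therefore fixed in advance, and the count does not measure stability. Centring alone changes the fold changes themselves, and it turned the sign of 1 uncalled value, Fcgbp between the genotypes, to 0.0096. With an adjusted p under 0.01, 3 members were higher in WT villus than crypt, against 936 of the 6429 genes. At that limit 2 members were higher in labelled-DKO villus than crypt, against 252 genes, and the rebuilt test called 558 genes in all. With a log2 fold change beyond 1, the counts over all genes were 285, 559 and 223 for villus against crypt, WT against labelled DKO and labelled DKO against crypt; 1 member was then higher in villus, 0 in crypt, 1 in labelled-DKO than WT villus and 0 in labelled-DKO villus than crypt. Against changes up to 0.5 the counts over all genes were 252, 637 and 90. There 2 members (Fcgbp and Zg16) were higher in villus, against 222 of all genes, and 0 in crypt, against 30. In labelled-DKO villus than crypt 0 members were higher, against 32 genes. Between the genotypes 2 members (Agr2 and Spink4) were higher in labelled-DKO villus, against 153 of all genes, and 0 in WT villus, against 484. These limits let fewer genes pass by construction. Centring gave 1 member higher in WT than labelled-DKO villus, Zg16, against 1710 of all genes. The SE of the first table gave 1896 genes for labelled DKO against crypt.

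No paired analysis was possible because the count columns carry no names and no values per library were used. For the same reason leaving out each replicate, DESeq2 against edgeR, other count filters and fits of fewer groups were not run, so no result is checked against the loss of 1 library.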
